A study of Mus musculus with 6 samples.

Results

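NRF2 binding sites were compared between wild type (WT) and GCN2 knockout (GCN2 KO) mouse embryonic fibroblasts (MEFs) that had been kept without leucine. The members are all peaks of those 2 NRF2 lists, 5980 in WT and 4600 in GCN2 KO, which together are 10580 of the 16057 peaks in the 4 NRF2 lists of the series. A peak was called shared when it overlapped a peak of the other list by at least 1 bp on the same chromosome, and genotype-specific otherwise. All cells were of the 129S6/SvEvTac strain, and the KO cells carried the genotype GCN2-/-. The leucine-free groups spent 24 h in DMEM from which leucine was left out, and the groups used for comparison spent the same 24 h in complete DMEM, with 2336 peaks in WT and 3141 in GCN2 KO. NRF2-bound DNA was captured with an antibody and sequenced (ChIP-seq), in 1 library per genotype and medium. The 2 input libraries of the series came from complete medium, 1 per genotype, and each leucine-free list was called against the one of its genotype. The sources used here do not say whether the MEFs were 1 isolate or several, and a list of NRF2 peaks measures neither cell identity nor the loss of GCN2.

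NRF2, encoded by Nfe2l2, is a transcription factor that KEAP1 marks for degradation until oxidants or electrophiles modify KEAP1. It then pairs with a small MAF protein and binds the antioxidant response element, whose core reads TGACNNNGC, near genes of glutathione, thioredoxin, NADPH, detoxification and iron metabolism. GCN2, encoded by Eif2ak4, is the kinase that senses uncharged tRNA when an amino acid such as leucine is scarce, and it phosphorylates eIF2α, which favours translation of the transcription factor ATF4.

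The 10 stretches below are promoter sites under shared peaks, peaks of the WT list alone and 1 peak of the KO list alone. Each was chosen for holding a match to a motif marked below. They do not show how frequent these motifs were. Each is from the RefSeq sequence of GRCm38.p6, the assembly also called mm10, written 5′ to 3′ on the strand of the gene. Capitals mark every match, on either strand, to the antioxidant response element core TGACNNNGC or to TGANTCA, the AP-1 type site that overlaps many such elements. Stretches that touch an annotated gene were kept to 30 bases.

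The first 4 lay under peaks shared by both genotypes. They belong to Prdx1, which encodes the peroxide-removing enzyme peroxiredoxin 1, Txnrd1, which encodes thioredoxin reductase, Aox1, which encodes aldehyde oxidase, and Me1, which encodes the NADPH-producing malic enzyme.
Prdx1, chr4:116685455-116685484, plus strand: ccagggaaagcGCTGAGTCAtcccccgtag
Txnrd1, chr10:82859103-82859132, plus strand: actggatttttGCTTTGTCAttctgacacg
Aox1, chr1:58029722-58029781, plus strand: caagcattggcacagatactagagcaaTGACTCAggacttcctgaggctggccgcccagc
Me1, chr9:86695902-86695931, minus strand: cgatgccgccgTGACTCAGCgcttctcgcg

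The next 5 lay under peaks of the WT list that had no overlap in the KO list. The Gm46822 stretch is from the window of a long non-coding RNA that starts beside Gclm, and it lies under the peak assigned to Gclm, the modifier subunit of glutamate-cysteine ligase. Srxn1 encodes sulfiredoxin, which reactivates peroxiredoxins, Osgin1 is an oxidative stress-induced growth inhibitor gene, and Cxcl10 encodes a chemokine.
Gm46822, chr3:122245642-122245671, minus strand: ctggaagacaaTGACTAAGCagaaacctca
Srxn1, chr2:152105395-152105454, plus strand: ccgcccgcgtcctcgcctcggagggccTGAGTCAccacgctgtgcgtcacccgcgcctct
Osgin1, chr8:119437038-119437067, plus strand: aggggcccctgcTGACTCAcgcttatgaaa
Cxcl10, chr5:92348947-92348976, minus strand: tgcggagccttGCTGAGTCAtctccaaagt
Htatip2, chr7:49759452-49759481, plus strand: tgtctgagctgTGACTCAGCacttccctag

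The last lay under a peak of the KO list alone, at a gene without an established role.
1700026D11Rik, chr2:132490748-132490777, plus strand: acaagatggcccttctTGAGTCAgtctgga

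Of the 5980 WT peaks, 476 overlapped a KO peak (7.96%, 95% exact Clopper-Pearson interval 7.29 to 8.67), and 477 of the 4600 KO peaks overlapped a WT peak (10.4%, 9.50 to 11.3). This left 5504 WT-specific and 4123 KO-specific peaks. With the WT list cut to its 4600 highest-scoring peaks, 463 WT peaks were shared, which is 10.1%. The intervals cover counting error only, read numbers behind the lists are unknown, and with 1 library per genotype no difference in this comparison has a replicate check. Absence from a list means that no window passed the authors' threshold there, not that NRF2 was unbound.

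The shared sites were concentrated among the highest scores. The peak score is the authors' own value per peak and is used here only to rank peaks within a list, with rank 1 as the highest score and tied peaks given the same rank. The 50 highest-scoring peaks of each list were all shared, as were 167 of the WT top 200 and 177 of the KO top 200. In the highest-scoring 10% of peaks, 55.2% of WT peaks and 67.6% of KO peaks were shared. In the next 10%, the shares were 9.20% and 12.4%. In the lowest 10% they were 0.167% and 1.96%.

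**Figure D1:**
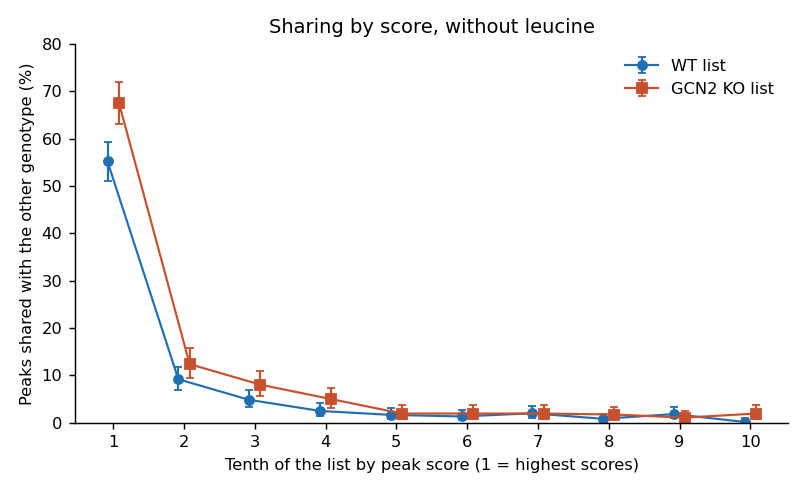
Percent of peaks shared with the other genotype (vertical axis) in successive 10% steps of the WT list (circles) and the GCN2 KO list (squares), ordered by peak score from the highest on the left; bars are 95% exact intervals. Both lists start at 55.2% and 67.6% in the highest step and are at or below 12.4% in all later ones.

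Where a site was shared, both lists placed it at nearly the same position and at a broadly similar rank. The windows of the 476 shared WT peaks started a median of 22 bp from their KO partners, and 391 (82.1%) were within 50 bp. Of the shared peaks, 80.9% lay in the top 20% of the WT list and 77.1% of the shared KO peaks lay in the top 20% of the KO list. The Spearman correlation of the 2 within-list percentiles over the 476 shared sites was 0.61. It is given as a description over sites, which are not replicates. Few genotype-specific peaks were near misses, since 44 WT-specific peaks (0.799%) and 41 KO-specific peaks (0.994%) started within 1 kb of a peak in the other list.

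The 10 top shared sites within 10 kb of a transcription start site (TSS) included those of heme, ferritin, glutathione and peroxiredoxin genes. Ftl1, the ferritin light chain gene, was ranked 1 in WT and 5 in KO, at -1095 bp from its TSS, and was ranked 2 and 1 in the complete-medium lists of WT and KO. Hmox1, the heme oxygenase that frees iron from heme, had 2 sites upstream of its TSS in all 4 lists. The one at -9632 bp in the WT list was ranked 13 without leucine and 82 in complete medium in WT, and 14 in both media in KO. The one at -3909 bp was ranked 72 and 154 in WT and 20 and 64 in KO, in the same order of media. Gclc, the catalytic subunit of glutamate-cysteine ligase, was ranked 6 in WT and 23 in KO, and 4 and 15 in complete medium. Prdx1 was ranked 17 in WT and 12 in KO, and 12 and 34 in complete medium. Each of these genes was in the top 100 peaks of every list, except that the nearer Hmox1 site was outside it in WT cells in complete medium.

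Another 5 of the 10 were at rank 28 or better in all 4 lists. Brd2, which encodes a bromodomain protein, was ranked 4 in WT and 9 in KO. Creld1 was ranked 5 and 2, at a site inside an L1MB5 repeat. The chemokine gene Ccl1 was ranked 12 and 13, and Gstp2, a glutathione S-transferase gene, 15 and 15. The site assigned to Mir3076 was ranked 10 and 4 and lay in intron 4 of 13 of the transketolase gene Tkt, so an NADPH-related gene is missed where only the nearest TSS is counted. The site with the best mean rank lay in intron 2 of 9 of the nuclear receptor gene Rxra, 29871 bp from its TSS, at rank 2 in WT and rank 1 in KO.

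**Figure D2:**
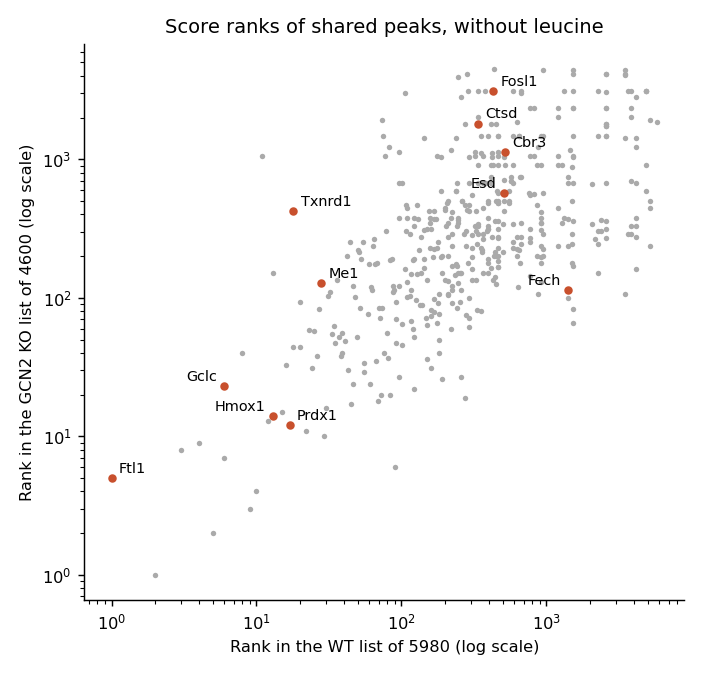
Rank of each of the 476 shared WT peaks in the WT list (horizontal, log scale) and of its partner in the GCN2 KO list (vertical, log scale), where 1 is the highest score; red points are named genes. Ftl1, Hmox1, Prdx1 and Gclc sit at the lower left, while Txnrd1 (18 and 422) and Fosl1 (428 and 3090) have the higher rank in WT and Fech (1403 and 114) in KO.

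Some shared genes held different places in the lists. Txnrd1 was ranked 18 in WT and 422 in KO, with 27 and 59 in complete medium. Fosl1, an AP-1 subunit gene, was ranked 428 and 3090 and was in neither complete-medium list within 10 kb. Ctsd, which encodes the lysosomal protease cathepsin D, was ranked 340 and 1805, and 250 in complete medium in KO. Fech, the ferrochelatase that inserts iron into heme, went the other way, with 1403 in WT and 114 in KO, and 55 and 214 in complete medium. The largest gaps in within-list percentile were at Ccr1 (432 in WT, 4468 in KO), Kcnj15 (284 and 4114) and Pgbd5 (246 and 3925), and in the other direction at Prl2c3 (5187 and 237) and Pinx1 (5187 and 446). Lists of different length and depth do not rank on 1 scale, and these ranks do not measure a change in binding.

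NRF2 target genes were covered far above the background in both genotypes, and more of them in WT. The 6 lists covering glutathione, thioredoxin, NADPH, detoxification, efflux and NRF2 regulators held 95 genes between them. Of these, 32 had a WT peak within 10 kb of the TSS, where 6.17% of 21896 protein-coding genes had one, and 20 had a KO peak, against 4.03% of protein-coding genes. Both lists marked 18 of the 95 (background 0.904%), the WT list alone 14 (5.27%) and the KO list alone 2 (3.13%). The WT count was 29 with the WT list cut to 4600 peaks (4.73%). In complete medium the counts were 29 in WT, from 2336 peaks, and 19 in KO, from 3141 peaks. The share over all protein-coding genes was not computed for the complete-medium lists, so these counts have no background beside them. The target list was written with earlier results of these data known and is not independent evidence.

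The conjugation and detoxification genes did not differ between the genotypes by this count. All 8 of the 30 that had a WT peak also had a KO peak (26.7% in each, background 6.17% and 4.03%), at a shared site in each case. Nqo1, a quinone reductase, was ranked 363 in WT and 670 in KO at its promoter. Aox1 was ranked 167 and 422, also at its promoter, and Cbr3, a carbonyl reductase gene, 520 and 1129. Gstm1 was ranked 23 and 59 and Gstm3 396 and 312, both in the last intron. Ephx1, the microsomal epoxide hydrolase, was ranked 223 and 288, Esd 506 and 567, and Gstp2 is given above. The rank number was lower in the WT list for 6 of the 8, equal for Gstp2 and lower in the KO list for Gstm3. The Gstm and Gstp genes lie among close paralogs, and how reads that fit several copies were placed is not stated.

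Glutathione synthesis and cystine uptake were marked at 4 of 12 genes in WT (33.3%, background 6.17%) and at Gclc alone in KO (8.33%, background 4.03%). Gclm had a promoter peak ranked 189 in WT without leucine and 428 in WT in complete medium, and no peak in either KO list. Slc7a11, the cystine-glutamate antiporter, had a WT peak ranked 368 in intron 2 of 11, and none within 10 kb in the other 3 lists. A KO peak without leucine that was assigned to it, ranked 751, lay 316917 bp from its TSS. Gsr, glutathione reductase, had a WT peak ranked 5391 in its 5′ untranslated region, close to the bottom of the list. Thus 1 of these 3 WT-only genes recurred in the second WT library, and none had a KO peak within 10 kb.

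Thioredoxin and peroxide-removing genes were marked at 8 of 18 genes in WT (44.4%, background 6.17%) and 5 in KO (27.8%, background 4.03%). Prdx1, Prdx6, Sod1, Txn1 and Txnrd1 were in both lists at shared sites. Txn1, thioredoxin, was ranked 16 in WT and 33 in KO, Prdx6 96 and 27, and the superoxide dismutase gene Sod1 308 and 162. Within 10 kb of the TSS, Srxn1, Osgin1 and Cat were in the WT list alone. The Srxn1 promoter peak was ranked 261 in WT, and 314 and 774 in the complete-medium lists of WT and KO, so a KO library did hold this site. Osgin1 was ranked 246 in WT and appeared in none of the other 3 lists, and Cat, the catalase gene, was ranked 1524. A KO peak without leucine that was assigned to Cat, ranked 591, lay 30480 bp from its TSS.

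Drug efflux genes were marked at 4 of 9 in WT and 1 in KO, and the listed NADPH-producing genes at 2 of 9 and 1, where 6.17% of protein-coding genes were marked in WT and 4.03% in KO. With 9 genes to a list, the KO count of 1 is too small to be set apart from that background. Abcc4, a multidrug resistance-associated transporter gene, was shared at ranks 236 and 591, while Mvp, Abcc1 and Abcc3 had a WT peak within 10 kb and no KO peak within it. Mvp, the major vault protein gene, was ranked 95 in WT without leucine and 144 in WT in complete medium, and was in neither KO list. Abcc1 was ranked 165 without leucine in WT, and 985 and 581 in complete medium in WT and KO. A KO peak without leucine, ranked 288, lay at -10519 bp from the Abcc1 TSS, just past the 10 kb limit and 1867 bp from the WT peak at -8652 bp. Abcc3 was ranked 5397, and a KO peak without leucine that was assigned to it, ranked 3925, lay at -22698 bp. Me1 was shared at its promoter at ranks 28 and 127, and Pgd, a pentose phosphate enzyme, had a WT peak ranked 5070.

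Among the regulators of NRF2 and its partners, 6 of 17 were marked in WT (35.3%, background 6.17%) and 4 in KO (23.5%, background 4.03%). The small MAF gene Mafg was shared at ranks 84 and 187, and Sqstm1, which encodes p62, was shared at 2 sites, the higher-ranked one 71 and 72. Nfe2l2 itself was ranked 2077 in WT and 314 in WT in complete medium, and was in neither KO list. Keap1 was ranked 2557 in WT and 2096 in KO in complete medium, so it appeared once in each genotype. Pir, an iron-dependent nuclear protein gene, was ranked 463 in WT and 188 in WT in complete medium, and Maff was ranked 3470. Gsk3b (2943) and Nfe2l3 (3090) were in the KO list alone.

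The target genes in both lists held better ranks than those in the WT list alone. Over all peaks, shared sites were likewise concentrated among the highest scores, so this order is not particular to target genes. The best peaks of the 18 genes in both lists had WT ranks from 6 to 520 with a median of 90, and KO ranks from 12 to 1129 with a median of 174.5. The 14 genes in the WT list alone had ranks from 95 to 5397 with a median of 993.5. Of these 14, 7 were also within 10 kb in the WT complete-medium list and 3 in that of KO, and 3 had a KO peak without leucine within 50 kb. The 2 genes of the KO list alone were in neither complete-medium list.

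**Figure D3:**
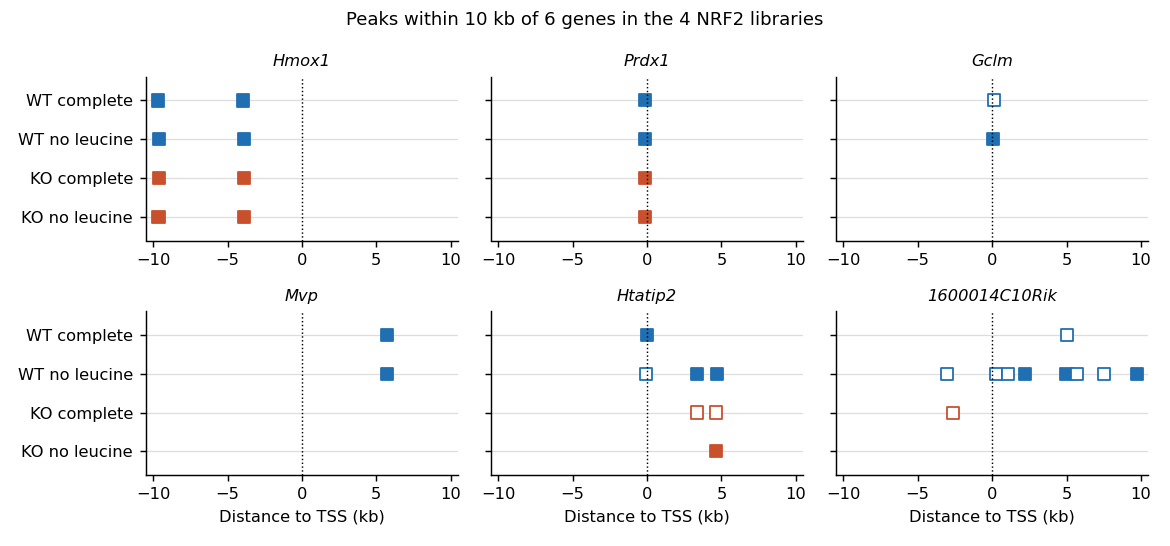
Peaks (squares) by distance to the TSS in kb (horizontal) at 6 genes in the 4 NRF2 libraries (rows); filled squares are in the highest-scoring 10% of their list. Hmox1 and Prdx1 have the same sites in every library, Gclm and Mvp are marked in the 2 WT libraries, and 1600014C10Rik has 8 peaks in WT without leucine and none in KO without leucine.

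Heme and iron genes were marked at 11 of 48 in WT (22.9%, background 6.17%) and 8 in KO (16.7%, background 4.03%), with 7 in both lists (background 0.904%). Besides Hmox1, Ftl1 and Fech, the shared sites were at Fth1, the ferritin heavy chain (34 in WT, 63 in KO), Slc48a1, the heme transporter (8 and 40), and Abcb6 (881 and 1222). Steap3, a ferrireductase gene, had a peak in each list at different sites, ranked 2557 and 3925. The divalent metal transporter gene Slc11a1 was ranked 132 in WT and 344 in WT in complete medium and was in neither KO list. Urod (1201), Spic (3854) and Mfsd7c (2486) were in the WT list alone and Ppox (3090) in the KO list alone. No peak was assigned to Slc40a1, the iron exporter ferroportin, in any of the 4 lists.

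Genes of the amino acid response, to which GCN2 signals through ATF4, were near the background. Of 47 genes, 4 had a WT peak and 1 a KO peak within 10 kb (8.51% and 2.13%, background 6.17% and 4.03%), and none had both. Those in WT were Slc7a11, Psat1 (3470), Cars (1524) and Pck2 (4126), and the one in KO was Vegfa at rank 3090. Atf4 and Trib3 had no assigned peak in any list, and Asns, asparagine synthetase, had 1 in WT in complete medium, 55984 bp from its TSS. Eif2ak4 had 1 peak, ranked 2557 in WT without leucine, 16973 bp from its TSS in intron 3 of 38.

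Autophagy and lysosome genes were marked at 6 of 39 in WT (15.4%, background 6.17%) and 5 in KO (12.8%, background 4.03%). Tfe3, a transcription factor of lysosomal genes, was shared at ranks 25 and 58 and recurred at 65 and 311 in complete medium. Sqstm1 and Ctsd were shared, Atp6v1f (269), Map1lc3a (4126) and Tfeb (2557) were in WT alone, and Atp6v1h (2004) and Vps18 (2346) in KO alone. Cytokine-feedback and immediate early genes were marked at 5 of 31 in each genotype (16.1%, against the same backgrounds). Zfp36, an mRNA decay factor gene, was shared at ranks 182 and 106, and Dusp26 at 463 and 229. Socs3 was ranked 79 in WT alone, yet 874 and 83 in complete medium in WT and KO. Cyr61, a matricellular protein gene, was ranked 246 in KO alone and 187 in KO in complete medium, with no WT peak. Chaperone genes were marked at 5 of 23 in WT (21.7%) and 4 in KO (17.4%), against the same backgrounds, among them Hspb8 at a shared site ranked 158 and 229.

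The proteasome genes had 5 of 39 members in WT (12.8%, background 6.17%) and 1 in KO (2.56%, background 4.03%), all at low ranks between 2004 and 5397, and none in complete medium. With the WT list cut to the KO length the WT count was 2 (background 4.73%), so both counts were then close to the background. The lists of cell type markers were at counts of 2 of 25 in WT and 0 in KO for fibroblasts, 5 and 4 of 25 for macrophages, with no gene in both, and 2 and 0 of 25 for neurons and hepatocytes. Against the background of 6.17% in WT and 4.03% in KO, the macrophage counts were higher and the WT counts of the other lists were close. With the WT list cut to the KO length, the WT macrophage count was 2 of 25 (background 4.73%). In complete medium the macrophage counts were 4 in WT and 0 in KO, with no background share computed for those lists. Peak lists do not measure expression, so these counts neither support nor contradict the labelled cell type.

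Promoter peaks were less frequent among the KO-specific peaks. Peaks that HOMER put in the promoter-TSS class made up 3.99% of shared peaks (2.42 to 6.16), 2.58% of WT-specific peaks (2.18 to 3.03) and 1.26% of KO-specific peaks (0.943 to 1.65). The intervals of the genotype-specific classes do not overlap, but they carry no spread between libraries. Peaks within 10 kb of a TSS made up 31.7%, 27.9% and 22.5%, in the same order, and peaks beyond 100 kb 13.4%, 16.5% and 22.1%. Over the whole lists, KO minus WT for peaks within 10 kb was -4.83 percentage points without leucine but -0.078 in complete medium. For promoter-TSS peaks the whole-list difference was -1.15 and -0.564, in the same order of media. Among the 476 highest-scoring genotype-specific peaks, 14 WT peaks (2.94%) and 1 KO peak (0.21%) were at promoters. The KO cut fell among tied peaks, which were taken in order of chromosome. Of the promoter peaks of March11 and Car8, which were both in that tie, only 1 was counted. The KO share was below the WT share in these top sets, in the full sets and with lists of equal length, where 2.71% of WT-specific and 1.26% of KO-specific peaks were at promoters.

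The WT-specific promoter peaks with the highest scores included several antioxidant genes. In order of rank they were at Eef1a1 (139), Gclm (189), Cxcl10 (204), Osgin1 (246), Srxn1 (261), Mir22 (279), Gm15760 (292) and Kansl1 (553). The KO-specific ones started lower and held no gene of the NRF2 target list. They were at March11 and Car8 (751 each), Efcab6, 1700026D11Rik, Gm9047 and 1700029B22Rik (907 each), Ddit4l (1129) and Ankrd24 (1222). Eef1a1, which encodes a translation elongation factor, had promoter peaks at ranks 1837 and 40 in the complete-medium lists of WT and KO, so its absence from the KO list without leucine was not a property of every KO library.

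The antioxidant response element core was frequent in promoters under shared peaks. TGACNNNGC was found in 12 of 19 RefSeq promoter windows (250 bases before to 50 after the start) that a shared WT peak overlapped (63.2%, 38.4 to 83.7). It was found in 29 of 130 under WT-specific peaks (22.3%, 15.5 to 30.4), in 11 of 60 under KO-specific peaks (18.3%, 9.52 to 30.4) and in 4063 of all 32817 windows (12.4%). TGANTCA, which can lie within the longer match, was in 31.6%, 16.9%, 5.0% and 7.81% of the same sets. Inside the peak itself, the core was found in 11 shared, 14 WT-specific and 3 KO-specific windows. Over all peaks, the median within-list percentile of score was 94.5 for shared WT peaks, 49.6 for WT-specific and 44.7 for KO-specific peaks. The motif shares were not compared between peaks of matched score, so the part of score in them was not tested. Neighbouring genes can share a window's peak, windows on chromosome 18 were left out, and a match is not a measured site.

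Shared peaks held more B2-type short repeats than either full genotype-specific set, while long terminal repeats (LTRs) were least frequent in WT-specific peaks. SINEs, short interspersed repeats, covered 14.7% of shared peaks (11.6 to 18.2), 8.14% of WT-specific (7.43 to 8.89) and 7.86% of KO-specific peaks (7.05 to 8.72). Most of the shared ones were B3 or B3A elements, with 8.61%, 2.05% and 1.89%. The LTR elements RMER19B and RMER19C were at 3.78% of shared peaks and at 0.436% and 0.388% of the genotype-specific ones. LINEs, long interspersed repeats, showed the opposite order, with 3.15%, 6.38% and 7.86%. Among the 476 highest-scoring specific peaks of WT and KO, the SINE shares were 13.9% and 12.6%, closer to the shared value. B3 or B3A elements were at 6.72% and 6.09% there, RMER19B and RMER19C at 1.89% and 0.840%, and LINEs at 6.09% and 8.40%.

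LTRs covered 7.87% of WT-specific peaks (7.17 to 8.61), 10.9% of KO-specific peaks (9.98 to 11.9) and 10.3% of shared peaks (7.71 to 13.4). Among the 476 highest-scoring genotype-specific peaks of WT and KO, the values were 8.82% and 16.6%, and the ERVL-MaLR family made up 3.78% and 11.1%. B2 elements were at 7.98% and 7.77% there, against 9.66% of shared peaks, so that repeat family did not separate the genotypes. The sources used here do not say how reads that fit several copies of a repeat were treated, and the part of that step in these values was not tested. The median GC content was 52.2% in both full genotype-specific sets and 50.2% in shared peaks. In the 476 highest-scoring specific peaks it was 50.5% in each genotype, close to the shared value.

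**Figure D4:**
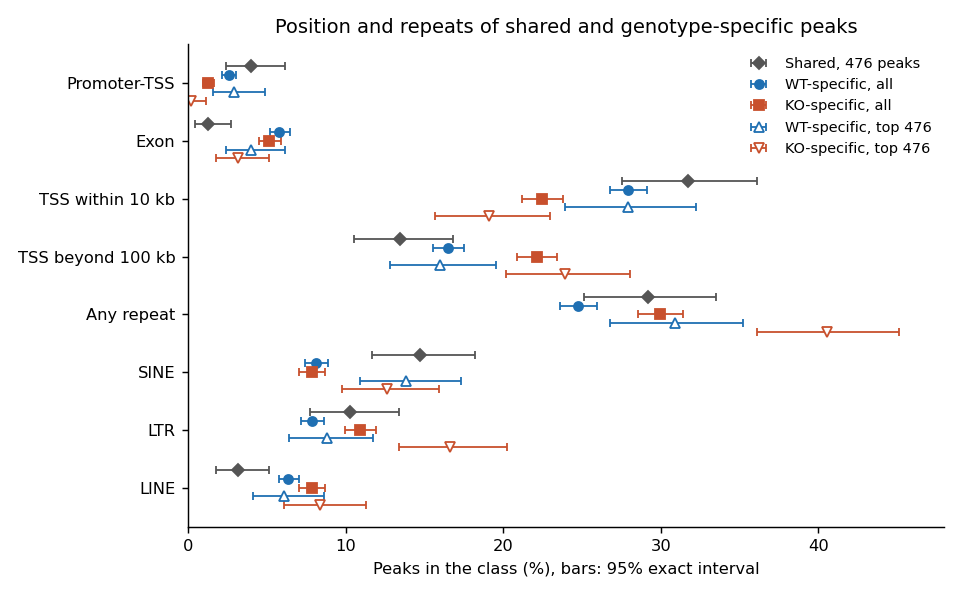
Percent of peaks in each annotation or repeat class (horizontal) for shared peaks (diamonds), all WT-specific (circles) and KO-specific (squares) peaks, and the 476 highest-scoring specific peaks of each (open triangles); bars are 95% exact intervals. KO-specific peaks lie lowest for promoters and TSS within 10 kb and highest for LTR, at 16.6% in the top 476.

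The complete-medium libraries were not used to define the groups and gave an outside view of them. Of the 476 shared peaks, 327 (68.7%) overlapped a peak of WT in complete medium and 305 (64.1%) one of KO, and 79.4% overlapped at least 1 of the 2. Of the WT-specific peaks, 208 (3.78%, 3.29 to 4.32) were in the WT and 125 (2.27%, 1.89 to 2.70) in the KO complete-medium list. Of the KO-specific peaks, 71 (1.72%, 1.35 to 2.17) were in the WT and 124 (3.01%, 2.51 to 3.58) in the KO list. Thus at least 1 complete-medium list held 4.98% of the WT-specific and 4.07% of the KO-specific peaks, and the rest were seen in 1 library of the 4.

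Among specific peaks that recurred in just 1 complete-medium list, that list was more often of the same genotype. This was so for 149 of 215 WT-specific peaks (69.3%, 62.7 to 75.4) and 97 of 141 KO-specific peaks (68.8%, 60.5 to 76.3). With both complete-medium lists at 2336 peaks the values were 73.0% (66.5 to 78.9) and 64.5% (55.4 to 72.9). Lists of 1 genotype were called against the same input library, and genotype and input cannot be told apart here. In the top 10% of the WT list, 41.8% of the specific peaks were found again in WT and 21.3% in KO in complete medium. In the top 10% of the KO list the values were 26.2% in KO and 21.5% in WT, closer to each other.

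**Figure D5:**
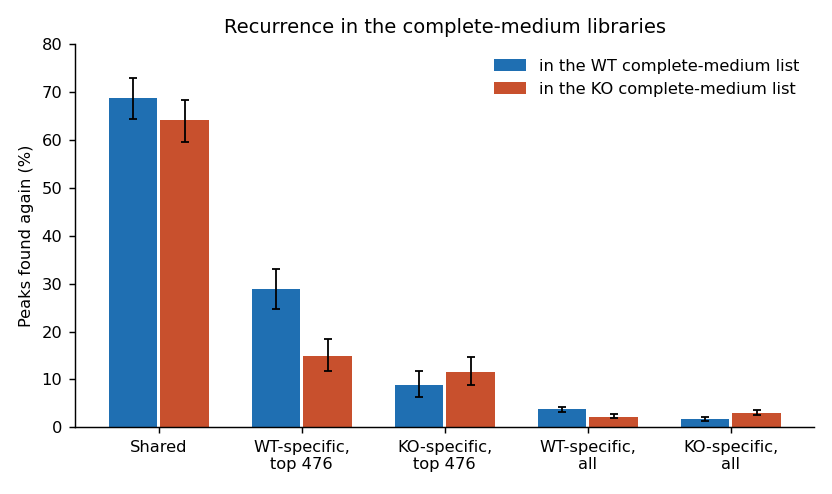
Percent of shared and genotype-specific peaks without leucine that overlap a peak in the WT (blue) or GCN2 KO (orange) complete-medium list (vertical axis, from 0); bars are 95% exact intervals. Shared peaks reach 68.7% and 64.1%, the 476 highest-scoring WT-specific peaks 28.8% and 14.9%, and the corresponding KO-specific peaks 8.82% and 11.6%.

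The highest-scoring specific peaks were often present in a library of the other genotype. Of the 20 top WT-specific peaks, 18 recurred in WT in complete medium and 12 in KO in complete medium, and 2 lay in repeats. Of the 20 top KO-specific peaks, 11 recurred in KO and 13 in WT in complete medium, and 12 lay in repeats. The first WT-specific peak, at -37921 bp from the Vegfa TSS, was ranked 55 without leucine and 120 and 102 in complete medium in WT and KO. The first KO-specific peak within 10 kb of a TSS and outside repeats was at Zfp957, ranked 93 without leucine and 190 in KO and 1083 in WT in complete medium. By overlap alone, such sites count as genotype-specific without leucine although both genotypes held them in complete medium.

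At least 3 peaks within 10 kb of the TSS were found at 14 genes in WT and 3 in KO, and at 8 in WT with the list cut to 4600 peaks. Within 10 kb of the TSS, 1570 genes had a WT peak and 1025 a KO peak, and 232 had both, which is 14.8% of the WT genes and 22.6% of the KO genes. Of those 232, 143 had a shared site and 89 had peaks at different sites alone. The gene with most peaks was 1600014C10Rik, with 8 in WT without leucine, none in KO without leucine and 1 in each complete-medium list. The best of the 8 were ranked 206, 461 and 585. Htatip2 had 3 WT peaks, ranked 195, 208 and 916, of which the site at 4671 bp was shared at KO rank 105. H6pd, an NADPH-producing enzyme gene of the endoplasmic reticulum that is not on the NADPH list counted above, had 3 WT peaks and 1 KO peak, which was shared and lay in a B3 repeat. Peaks at Rn45s, Sfi1 and Pisd-ps3, which have several close copies in the mouse genome, were in both lists and are uncertain because reads could be placed on more than 1 copy.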

How the data were processed

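NRF2 ChIP-seq and input libraries were read as single 50 bp reads, per the labels' protocols. BWA 0.7.12, MACS2 2.1.0 and HOMER 4.7 on mm10 are named per the submitters' processing notes, with no settings. Each list was called separately against the complete-medium input of its genotype and annotated in 300 bp windows, per the file headers. The authors deposited a peak score per peak, at least 13 in every list, and the sources used here do not name the caller column it comes from. GC and CpG content are a fraction of the window, per the file headers, and are printed as percent. Read counts per library are unknown, so the depth behind each list could not be set out. The sources do not say that the libraries came from separate cultures.

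Overlaps were computed with Python 3.11.15 and pandas 2.3.3, checked with bedtools 2.31.1 and tested on simulated peaks with known overlaps. Exact 95% Clopper-Pearson intervals came from scipy 1.17.1. With 1 library per condition no p-value was computed, and the share over protein-coding genes stands beside gene counts. The 16 gene lists had 414 entries, of which 412 matched the GRCm38.p6 gene table. Promoter windows were RefSeq sequences of that build.

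The members and lists were chosen with earlier results of these data known. Genes were named by 7 rules. These were the 10 best-ranked shared sites within 10 kb, the 8 best specific promoter peaks and the 8 best specific non-repeat peaks within 10 kb per genotype, and list members with a peak. They also took genes with at least 3 peaks, the 5 largest percentile differences each way, and Asns, Atf4, Trib3, Eif2ak4, Spic, Slc40a1, Slc48a1, Nqo1 and Hmox1. Tkt, Rxra and the top specific peak at Vegfa were added after their values were seen. Not every gene that meets the rules is described, and an item that meets them is not reported here, although the counts include it. Alternatives changed the overlap rule, list length, score threshold, repeat content and distance. Comparing equally many top specific peaks as shared ones, and counting genes with at least 3 peaks at equal length, were chosen after seeing the data.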

Additional observations from a re-analysis of the deposited data

Results flagged for a closer look

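The difference between the genotypes had opposite signs in the 2 media for 3 measures, each from 1 library per condition, and these differences between media were not tested. The measures were picked out for this, and the others compared in both media kept their sign. GCN2 KO minus WT came to -1380 peaks without leucine and 805 peaks in complete medium. For LINE repeats the complete-medium shares were close, at 5.27% in WT and 5.19% in KO. The LINE difference was 1.34 percentage points without leucine and -0.076 in complete medium. For the median GC content of the windows it was -0.166 percentage points without leucine and 0.997 in complete medium. Read depth is unknown in all 4 libraries, and its part in these values was not tested.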

How the results depend on the processing

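Of 91 recomputed values, 62 stayed within the counting interval of the reported value or within 1.5 times the reported count, and 29 moved beyond it. None changed sign, since shares and counts have none. Without replicates, no library could be left out. No paired analysis was possible because each condition had 1 library.

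With the WT list cut to the KO length, the shared percent of WT was 10.1, or 11.1 with peaks tied at the limit left out, and recurrence of WT-specific peaks was 6.31% in either complete-medium list, 4.79% in WT and 2.95% in KO. At that length, 8 genes had at least 3 WT peaks, against 14 in the full list. With the higher-scoring 50% of each list, 13.7% of WT and 17.9% of KO peaks were shared, and KO-specific peaks were 0.90% promoter-TSS, 52.4% intergenic, 33.9% repeat and 20.4% within 10 kb. With centres within 100 bp, recurrence in either complete-medium list was 4.39% for WT-specific and 3.49% for KO-specific peaks, and 2.43% for KO-specific peaks in the KO list. Within 1 kb of the TSS, 16 NRF2 target genes had a WT peak and 10 a KO peak. The share over all protein-coding genes was not computed at that distance, so these counts cannot be set against a background.

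For the 476 highest-scoring specific peaks, promoter-TSS was 0.21% in KO, intergenic 47.1% in WT and 54.4% in KO, repeats 30.9% and 40.5%, and within 10 kb 19.1% in KO. Recurrence of these WT-specific peaks was 34.5% in either complete-medium list, 28.8% in WT and 14.9% in KO. For these KO-specific peaks it was 16.2%, 8.82% and 11.6%. The promoter share of KO-specific peaks was below that of WT-specific peaks in all 4 settings in which both were recomputed (WT windows widened by 500 bp, equal length, higher-scoring 50%, top 476). The cause of these shifts was not tested.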

Other observations

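Chromosome X held few peaks in either genotype. It carried 5 of the 476 shared peaks (1.05%), 16 WT-specific peaks (0.291%, 0.166 to 0.472) and 30 KO-specific peaks (0.728%, 0.491 to 1.04), while 966 of 21896 protein-coding genes (4.41%) lie on it. Among the 476 highest-scoring specific peaks the order was turned, with 4 WT peaks and 1 KO peak. Pir is one of the X-linked genes with a WT-specific peak, and Tfe3 one with a shared peak.

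Peaks of 1 genotype also fell in groups along the chromosomes. Of all stretches of 100 kb, the largest excess of WT over KO peaks was around 1600014C10Rik on chromosome 7, with 12 WT and 0 KO peaks without leucine, and 3 WT and 1 KO peaks in complete medium. A stretch of chromosome 15 held 6 WT and 0 KO peaks, with 2 and 0 in complete medium. The largest excesses of KO were 5 KO and 0 WT peaks, in a stretch of chromosome 7 and in one of chromosome 8. These stretches were picked for their counts, and neighbouring peaks are not independent.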
